A study of Nannospalax ehrenbergi and Mus musculus with 25 samples.

Results

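The Toll-like receptors Tlr1 to Tlr9 and their shared adaptor Myd88 were followed through muscle and tumor tissue of the blind mole rat Spalax, a long-lived subterranean rodent, and of the house mouse. The 10 genes were chosen by symbol. The mouse table lists all 10 among 47593 genes, and the Spalax table lists 9 among 27988, since no row there is named Tlr9. Expression was measured by strand-specific RNA-seq in 25 libraries, 16 from Spalax and 9 from mouse. The values are normalised counts, that is reads per gene divided by 1 scaling factor per library.

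Spalax and mice were given a single injection of 3-methylcholanthrene (3MCA), a carcinogen that induces sarcomas. The dose was 1 mg for Spalax and 200 µg for mice. Spalax control (n = 4, all female) and mouse control (n = 3, male) were untreated. Spalax tolerant (n = 4) is the injected side of animals that are labelled healthy and carried no tumor, taken 18 months (animals 2251 and 2261) or 30 months (2218 and 2375) after the injection, of which 2375 is female and the others male. Spalax granuloma came from females 600 (14 months) and 976 (16 months), and Spalax fibrosarcoma from female 2240 (18 months) and male 2230 (30 months). Mouse fibrosarcoma came from males 1019 (14 weeks), 1023 (12 weeks) and 512 (11 weeks). Each tumor-bearing animal gave a library of the injected side (IS), which held the tumor, and of muscle from the uninjected side (UIS). The design lists 6 Spalax of about 2 years, 6 Spalax of 10 years or older and 6 mice aged 3 to 4 months. In Spalax, sex and sampled side differ along with treatment between control and tolerant, and their parts cannot be told apart. Each Spalax tumor type rests on 2 wild-caught animals.

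Toll-like receptors bind conserved microbial molecules and products of damaged cells. Tlr1, Tlr2, Tlr4, Tlr5 and Tlr6 sit mainly at the cell surface and recognise lipoproteins, lipopolysaccharide and flagellin, whereas Tlr3, Tlr7, Tlr8 and Tlr9 sit in endosomes and recognise nucleic acids. All of them except Tlr3 signal through Myd88, which recruits IRAK kinases and leads to NF-κB and inflammatory cytokines. Macrophages, neutrophils and dendritic cells are rich in these receptors, and many stromal cells carry some of them.

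Muscle markers were high in every library taken from muscle. Their summed normalised counts (Ckm, Acta1, Mb, Ttn, Tnnt3 and, in mouse, Myh4) lay between 857600 and 4136000 in the control, tolerant and UIS libraries. In IS they lay between 158 and 3608 in Spalax and between 172 and 63530 in mouse. The macrophage markers moved the other way. Their sum (8 genes in Spalax, 9 in mouse) was 1573 to 4943 in Spalax UIS and 11900 to 49870 in Spalax IS, and 488 to 5503 in mouse UIS and 7370 to 38880 in mouse IS. The fibroblast sum (4 genes) was 12530 to 33700 in Spalax UIS and 55670 to 1494000 in Spalax IS, and 3724 to 22250 in mouse UIS and 97790 to 117600 in mouse IS. In Spalax the sums of T cell markers (24.2 to 57.9 in UIS, 58.1 to 668 in IS) were also higher in IS, though nearly equal in granuloma animal 600 (57.9 and 58.1). Dendritic cell markers (16.5 to 88.5 and 62.4 to 876) and neutrophil markers (194 to 2903 and 1214 to 7298) overlapped in range. Within each tumor-bearing Spalax both of these sums were higher in IS than in UIS. The sums of B cell markers (63.9 to 158 and 11.1 to 52.0) and endothelial cell markers (8793 to 10530 and 3308 to 4980) were lower in IS. Up to 3 of the 5 B cell markers were at 0 in a UIS library and at most 1 in an IS library, so the lower sum does not speak for each marker. The neutrophil marker sum was highest in UIS of mouse 1023, at 14900, beside 314 and 359 in the other mouse UIS libraries. In bulk tissue, more cells of a type and more RNA per cell cannot be told apart, and the part of these markers in the results that follow was not tested.

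Spalax tumors were set against UIS muscle to ask which receptors differ between tumor and muscle. Of the 8 members that passed the filter (a value of at least 10 in 4 libraries), 7 were higher in IS (limma, adjusted p at most 0.05), namely Tlr1, Tlr2, Tlr3, Tlr4, Tlr6, Tlr8 and Myd88. Over all 14431 genes tested, 52.6% were differentially expressed and 26.1% were higher in IS. The median log2 difference of the 8 members was 2.77, beside 0.0061 over all genes. The IS and UIS libraries did not overlap for 7 of the 8, all of them except Tlr1, and 24.4% of all genes had every IS library above every UIS library. With scaling by total reads the median of all genes moved to 0.773 and 75.4% of the called genes were higher in IS, instead of 49.7%, and all 8 members passed. Tlr2, Tlr4 and Myd88 reached a value of 10 in all 4 UIS libraries, while the other 5 passed the filter only with the help of IS libraries, which favours a rise among them.

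**Figure D1:**
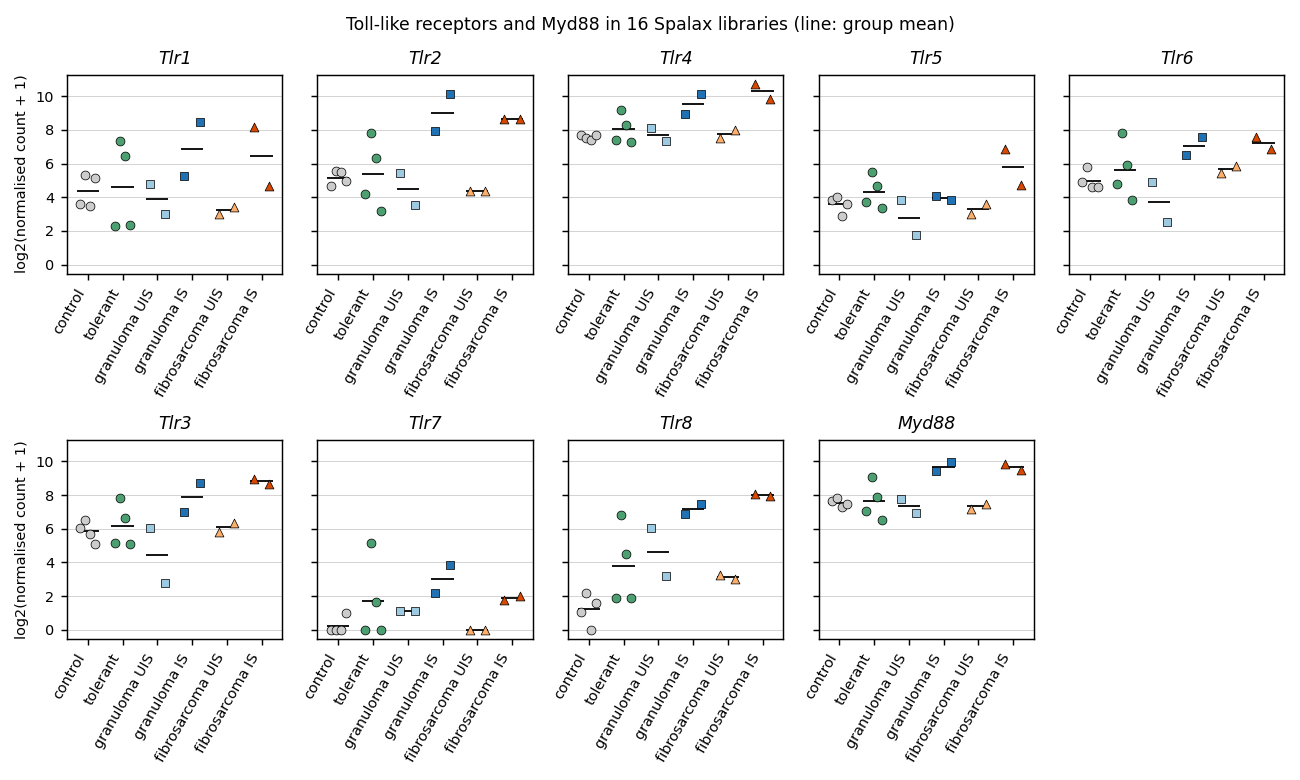
Normalised counts of the 9 listed members in the 16 Spalax libraries, as log2(value + 1) on the vertical axis, by group on the horizontal axis, with points for libraries and lines for group means. Myd88, Tlr2 and Tlr4 of all 4 IS libraries lie above those of all 4 UIS libraries, and Tlr7 stays near 0 in most libraries.

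Myd88, the adaptor, had the smallest spread. Its normalised counts in UIS were 216 and 120 in the granuloma animals 600 and 976, and 176 and 145 in the fibrosarcoma animals 2240 and 2230. In IS of the same animals they were 681, 1008, 710 and 913. Every tumor was thus well above every uninjected side. Myd88 differed by 2.34 ± 0.26 on the log2 scale (SE, n = 4 per side, adjusted p = 9.54e-05).

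Tlr2, which pairs with Tlr1 or Tlr6 to bind bacterial lipoproteins, changed most among the members that were measurable on both sides. It was 42.2, 10.6, 19.4 and 19.9 in UIS of animals 600, 976, 2240 and 2230. The IS values were 246, 1100, 396 and 407 in the same order. No IS library came near a UIS library, and granuloma 976 held both the lowest and the highest of the 8 values. Tlr2 differed by 4.41 ± 0.55 on the log2 scale (SE, n = 4 per side, adjusted p = 0.000185).

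The partners of Tlr2 behaved less evenly. Tlr1 was 26.5, 7.07, 9.70 and 7.11 in UIS of 600, 976, 2240 and 2230, and 37.0, 352, 24.6 and 292 in IS. The IS value of fibrosarcoma 2240 lay below the UIS value of granuloma 600, so the groups overlapped, and animals 600 and 2240 stood far below 976 and 2230. The log2 difference was 3.09 ± 0.92 (SE, adjusted p = 0.0185), and it did not pass without both libraries of animal 2230 (2.39, adjusted p = 0.104) or of 976 (2.30, adjusted p = 0.0956), nor without IS 976 alone (2.48, adjusted p = 0.0518). Tlr6 was 28.9, 4.71, 57.0 and 42.7 in UIS and 88.6, 192, 113 and 193 in IS, with no overlap and a log2 difference of 2.45 ± 0.71 (SE, adjusted p = 0.0163).

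Tlr1 and Tlr6 are close copies, which limits how well their reads are told apart. In mouse they are neighbours on chromosome 5 (GRCm38, minus strand, GENCODE vM21), Tlr1 at chr5:64924679-64933563 and Tlr6 at chr5:64952031-64960097. Their transcripts share an identical run of 229 coding bases, in the last exon of each gene, at chr5:64925537-64925765 in Tlr1 (exon 4 of 4) and chr5:64953828-64954056 in Tlr6 (exon 2 of 2). In every other pair among the members and the mouse receptors Tlr11 to Tlr13 the longest shared run was 18 bases or less. That run, the longest the pair shares, is printed 5′ to 3′ as transcribed, since reads of 101 bases inside it belong to both genes:
Tlr1 and Tlr6: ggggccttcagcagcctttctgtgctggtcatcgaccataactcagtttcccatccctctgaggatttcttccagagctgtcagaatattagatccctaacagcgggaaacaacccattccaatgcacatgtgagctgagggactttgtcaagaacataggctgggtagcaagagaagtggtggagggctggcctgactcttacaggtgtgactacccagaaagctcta
Of the 101-base windows, 256 of 2925 in Tlr1 (8.75%) and 256 of 3577 in Tlr6 (7.16%) occur in both transcripts. How the counting treated such reads is not given in the sources used here, so values of Tlr1 and Tlr6 are uncertain to that extent. A Spalax genome was not used here, and the shared length in Spalax was not measured.

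Tlr4, the receptor of lipopolysaccharide, was read well on both sides. In UIS it was 271, 163, 252 and 179 in animals 600, 976, 2240 and 2230. In IS it was 488, 1140, 900 and 1719. All IS libraries were above all UIS libraries, with granuloma 600 the lowest of the tumors and fibrosarcoma 2230 the highest. The log2 difference was 2.18 ± 0.38 (SE, adjusted p = 0.00120). Tlr5, the flagellin receptor, was low throughout. It was 13.3, 2.36, 10.9 and 7.11 in UIS and 16.0, 13.3, 25.2 and 117 in IS. The difference of 1.84 ± 0.76 on the log2 scale (SE) did not pass the test (adjusted p = 0.0695), and fibrosarcoma 2230 stood far above the other tumors, although the groups just failed to overlap. With the reads recovered from the values, Tlr5 passed in edgeR (2.33, adjusted p = 0.0429) and in DESeq2 (2.33, adjusted p = 0.0154).

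Among the endosomal receptors, Tlr3, which binds double-stranded RNA and signals through Ticam1 instead of Myd88, was 66.3, 5.89, 80.0 and 55.4 in UIS of 600, 976, 2240 and 2230. In IS it was 129, 417, 405 and 500. The groups did not overlap, and the UIS of granuloma 976 lay far below the other UIS libraries. The log2 difference was 3.09 ± 0.80 (SE, adjusted p = 0.00985). Tlr8, a receptor of single-stranded RNA, was 65.1, 8.24, 7.27 and 8.53 in UIS and 118, 178, 242 and 271 in IS. The UIS of granuloma 600 stood apart from the other UIS libraries, yet remained below every tumor. The log2 difference of Tlr8 was 3.71 ± 0.69 (SE, adjusted p = 0.00170).

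Tlr7, the other receptor of single-stranded RNA, was almost unread in Spalax. Control libraries held 0, 0, 0 and 1 reads, UIS libraries of 600, 976, 2240 and 2230 held 1, 1, 0 and 0, and the IS libraries held 5, 22, 5 and 4. A count of 0 allows up to 3 reads in a library, by counting error only. Only granuloma 976 (22 reads) and tolerant 2251 (46 reads) were above 5 reads among all 16 libraries. Tlr7 passed the filter in no Spalax comparison, and no fold change is given. Tlr10, another receptor that is a partner of Tlr2 in many mammals, had a value of 1.42 or less in Spalax and was above 0 in 2 of 16 libraries.

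The tumor types were then taken apart, with 2 animals each. In granuloma, Tlr2 (4.54 ± 1.03, adjusted p = 0.0331) and Myd88 (2.36 ± 0.49, adjusted p = 0.0271) were higher in IS on the log2 scale (SE, n = 2 per side), which is 2 of 8 members tested, where 24.3% of 14735 genes were differentially expressed and 11.7% were higher. In fibrosarcoma, 5 of 8 were higher, where 36.3% of 14696 genes were differentially expressed and 17.4% were higher. These were Tlr2 (4.29 ± 0.39, adjusted p = 0.00483), Tlr3 (2.74 ± 0.38, adjusted p = 0.0105), Tlr4 (2.54 ± 0.42, adjusted p = 0.0154), Tlr8 (4.86 ± 0.44, adjusted p = 0.00490) and Myd88 (2.33 ± 0.30, adjusted p = 0.00901). In both tumor types all 8 members had every IS library above every UIS library, as did 35% of all genes in granuloma and 37.9% in fibrosarcoma. In granuloma UIS, Tlr1, Tlr3, Tlr5, Tlr6 and Tlr8 reached a value of 10 in 1 of 2 libraries. In fibrosarcoma UIS, Tlr5 did so in 1 of 2 libraries and Tlr1 and Tlr8 in 0, and Tlr8 held 6 reads in each. Those members passed the filter only with the help of IS libraries, which favours a rise among them.

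These numbers do not show a difference between the tumor types. When granuloma IS and fibrosarcoma IS were compared with each other, none of the 8 members passed (limma, adjusted p = 1 for each), nor did any of the 14562 genes, of which 4.06% had an unadjusted p under 0.05. None of the 8 members had an unadjusted p under 0.05. Over all genes edgeR called 0 and DESeq2 called 153, with 0 of the 8 members in each. Tlr8 (118 and 178 in granuloma, 242 and 271 in fibrosarcoma) and Tlr5 (16.0 and 13.3 against 25.2 and 117) did not overlap between the types, as did not 31.4% of all genes. The log2 differences were 0.82 ± 0.43 for Tlr8 and 1.84 ± 0.97 for Tlr5 (SE, n = 2 per type). Myd88 differed by -0.04 ± 0.35.

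The calls rest on few libraries. Leaving out any 1 of the 4 granuloma libraries gave 0 members and 0 genes called. In fibrosarcoma, leaving out UIS 2230 or UIS 2240 gave 0 members and 0 genes called, leaving out IS 2240 gave 8 members and leaving out IS 2230 gave 5.

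Untreated muscle, tolerant muscle and the uninjected side of tumor-bearing animals were compared to ask whether receptor levels differ where there is no tumor. Both comparisons share the 4 control libraries. Against control, 0 of 7 members tested differed in tolerant, with a smallest adjusted p of 0.923, and 0 of 14020 genes were called by limma, of which 5.23% had an unadjusted p under 0.05. None of the 7 had an unadjusted p under 0.05. Over all genes edgeR called 0 and DESeq2 called 60, with 0 of the 7 members in each. In UIS of tumor-bearing animals 0 of 7 members differed from control, with a smallest adjusted p of 0.436, and limma called 0 of 13909 genes, of which 16.6% had an unadjusted p under 0.05. Again none of the 7 did. Over all genes edgeR called 0 and DESeq2 called 516, with 0 of the 7 members in each. In tolerant all 7 log2 differences were above 0, from 0.08 ± 0.48 for Myd88 to 0.73 ± 0.58 for Tlr5 (SE), where 46.1% of all genes were above 0. In UIS 1 of 7 was above 0 (Tlr4, 0.14 ± 0.24), where 47.8% of all genes were, and the lowest was Tlr1 at -0.82 ± 0.62.

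The upward lean of tolerant rested most on animal 2251 and next on 2261. Control libraries held Myd88 at 155 to 223, with a mean of 188 ± 29.0 (SD, n = 4), whereas tolerant libraries held 132 (2218), 529 (2251), 237 (2261) and 91.1 (2375). Tlr2 was 24.3 to 45.8 in control and 17.2, 225, 78.8 and 8.04 in tolerant 2218, 2251, 2261 and 2375. Tlr4 was 170 to 209 in control and 168, 587, 308 and 153 in tolerant. In each gene 2251 was highest and 2261 next, and the animals 2218 and 2375, taken at 30 months, were the lowest.

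The same library led in the endosomal receptors. Tlr8 was 0 to 3.60 in control and 2.65, 113, 21.9 and 2.68 in tolerant 2218, 2251, 2261 and 2375. Tlr3 was 33.8 to 89.9 in control and 34.4, 229, 98.5 and 33.5 in tolerant. Without 2251, 2 of 7 members remained above 0 and Myd88 lay at -0.39, Tlr1 at -0.69 and Tlr2 at -0.60 on the log2 scale. It was 4 of 7 without tolerant 2261, 5 of 7 without control 2095 and 6 of 7 without control 1042. All 7 stayed above 0 without any other single library. The macrophage marker sum was 21240 in tolerant 2251, 5744 in 2261, 2748 in 2218 and 1367 in 2375, beside 3131 to 5359 in control. The skeletal muscle sum was 860500 in 2251 and 1768000 to 2592000 in the other tolerant libraries. The part of these cells in the levels of 2251 was not tested.

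Injected tissue with and without a tumor was compared next. Of 8 members tested, 5 were higher in tumor IS than in tolerant, where 46.4% of 14578 genes were differentially expressed and 22.4% were higher in IS. They were Tlr2 (3.46 ± 0.95, adjusted p = 0.0164), Tlr3 (2.16 ± 0.69, adjusted p = 0.0293), Tlr4 (1.88 ± 0.50, adjusted p = 0.0148), Tlr8 (3.83 ± 1.04, adjusted p = 0.0154) and Myd88 (2.05 ± 0.49, adjusted p = 0.00923), as log2 differences (SE, n = 4 per group). Tlr1, Tlr5 and Tlr6 did not pass. In tolerant, Tlr1 and Tlr8 reached a value of 10 in 2 of 4 libraries, and Tlr2 and Tlr5 in 3 of 4. Tlr1, Tlr2, Tlr5 and Tlr8 thus passed the filter only with the help of IS libraries, which favours a rise among them. In edgeR Tlr8 did not pass either (2.54, adjusted p = 0.0716). With scaling by total reads 71.8% of the called genes were higher in IS, instead of 48.2%, and 5 members passed. Tolerant 2251 reached into the tumor range for several of them. Its Tlr4 of 587 lay above granuloma 600 at 488, its Tlr3 of 229 above granuloma 600 at 129, and its Tlr6 of 225 above all 4 tumors, of which the highest was 193. Tlr2, Tlr8 and Myd88 did not overlap, as 19.2% of all genes with IS above tolerant. The number of members called was 6 without tolerant 2251 and 3 without tolerant 2218. The call of Tlr3 was lost in 5 of 8 fits that left out 1 library, namely without tolerant 2218 (1.81, adjusted p = 0.0846), tolerant 2375 (1.80, adjusted p = 0.0778), fibrosarcoma 2230 (1.95, adjusted p = 0.0686) or 2240 (2.05, adjusted p = 0.0671) or granuloma 976 (2.03, adjusted p = 0.0709). That of Tlr2 was lost without tolerant 2218 (3.07, adjusted p = 0.0523). This comparison shares its IS libraries with the comparison against UIS.

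**Figure D2:**
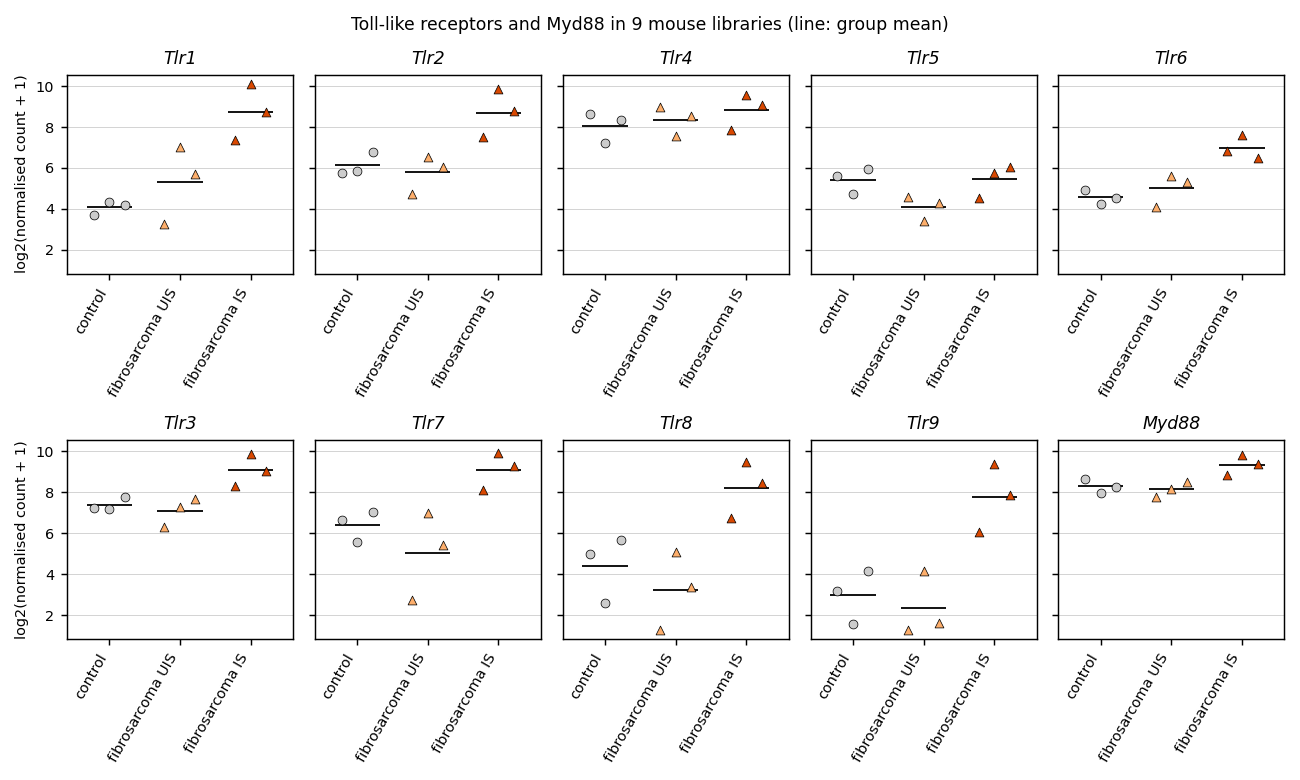
Normalised counts of the 10 members in the 9 mouse libraries, as log2(value + 1) on the vertical axis, by group on the horizontal axis, with points for libraries and lines for group means. IS libraries lie above UIS libraries for 8 members and overlap them for Tlr4 and Tlr5.

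In mouse, 8 of 10 members were higher in fibrosarcoma IS than in UIS (limma, adjusted p at most 0.05), where 45.1% of 15220 genes were differentially expressed and 22.8% were higher. These were Tlr1, Tlr2, Tlr3, Tlr6, Tlr7, Tlr8, Tlr9 and Myd88, and in all 8 the IS libraries lay above the UIS libraries, as in 31.1% of all genes. Tlr4 and Tlr5 did not pass. The median log2 difference was 2.46 over the 10 members and 0.107 over all genes tested. With scaling by total reads the median of all genes moved to 1.16 and 81.9% of the called genes were higher in IS, instead of 50.5%, and all 10 members passed. Tlr2, Tlr3, Tlr4, Tlr6 and Myd88 reached a value of 10 in all 3 UIS libraries, and the other 5 passed the filter with the help of IS.

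Myd88 was 283, 362 and 216 in UIS of mice 1019, 1023 and 512, and 898, 675 and 458 in IS. Every tumor was above every uninjected side. The log2 difference was 1.21 ± 0.35 (SE, n = 3 per side, adjusted p = 0.0302). In mouse, 11.3% of the exon bases of Myd88 lie under Acaa1a on the opposite strand, and the strand setting of the counting is not given in the sources used here.

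The surface receptors split into a group that rose and a pair that did not pass. Tlr2 was 91.9, 66.0 and 25.9 in UIS of 1019, 1023 and 512 and 915, 434 and 182 in IS (2.92 ± 0.73 on the log2 scale, SE, adjusted p = 0.0190). Tlr1 was 127, 51.6 and 8.64 in UIS and 1112, 431 and 164 in IS (3.42 ± 1.10, adjusted p = 0.0427, and 0.0509 in edgeR). Tlr6 was 48.4, 39.2 and 15.8 in UIS and 196, 90.2 and 111 in IS (1.97 ± 0.57, adjusted p = 0.0308). For Tlr1 and Tlr2, animal 1019 was highest and 512 lowest on both sides, as in the macrophage sums of 38880, 22740 and 7370 in IS of 1019, 1023 and 512.

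In Tlr4 the order of the animals in UIS was the reverse of that in IS. It was 185, 373 and 500 in UIS of 1019, 1023 and 512 and 762, 533 and 233 in IS, so it was higher in the tumor of 2 animals and lower in that of 512. The log2 difference of 0.48 ± 0.56 (SE) did not pass (adjusted p = 0.510). It was -0.29 without both libraries of 1019. Tlr5 was 9.67, 18.6 and 23.0 in UIS and 53.2, 65.8 and 22.1 in IS, with the UIS and IS of 512 nearly equal (1.35 ± 0.60, adjusted p = 0.107). With scaling by total reads both passed, Tlr4 at 1.55 (adjusted p = 0.0472) and Tlr5 at 2.40 (adjusted p = 0.0147), which is 0.39 and 1.24 above the median of all genes under that scaling.

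Among the endosomal receptors, Tlr9, Tlr8 and Tlr7 showed the largest differences of the 10 mouse members. Tlr9, which binds unmethylated CpG DNA, was 16.9, 2.06 and 1.44 in UIS and 677, 229 and 66.3 in IS of 1019, 1023 and 512. The lowest tumor was thus well above the highest uninjected side, although the UIS of 1023 and 512 rested on 2 and 1 reads. Tlr9 differed by 5.42 ± 1.10 on the log2 scale (SE, adjusted p = 0.00986). Tlr8 was 32.7, 9.28 and 1.44 in UIS and 705, 348 and 107 in IS (4.98 ± 1.11, adjusted p = 0.0133). Tlr7 was 125, 42.3 and 5.76 in UIS and 963, 628 and 276 in IS (4.05 ± 1.09, adjusted p = 0.0240). For Tlr7, Tlr8 and Tlr9 the order of the animals was 1019, 1023 and 512 on both sides. Tlr3 was 156, 201 and 77.7 in UIS and 947, 524 and 317 in IS (2.00 ± 0.54, adjusted p = 0.0240), and 7.32% of its exon bases lie under the opposite-strand gene Gm45542.

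The mouse calls depended on single animals. Without both libraries of mouse 1023, limma called 0 genes of 15404, and without those of 1019 it called 3 members. Leaving out IS 1019 or IS 1023 left 2 members called, and leaving out UIS 1023 left 4. The log2 differences of the 8 called members stayed above 0 in each of these fits.

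Mouse muscle was also compared without a tumor, as untreated control against UIS. None of 9 members tested passed (smallest adjusted p = 0.452), and limma called 0 of 14792 genes, of which 11% had an unadjusted p under 0.05. Among the members Tlr5 alone had an unadjusted p under 0.05 (limma). Over all genes edgeR called 0 and DESeq2 called 342, with 0 members in each. Tlr5 was 47.3, 25.1 and 61.0 in control 1, 2 and 5 and 9.67, 18.6 and 23.0 in UIS, without overlap, as in 21.2% of all genes (-1.32 ± 0.53, adjusted p = 0.452). Tlr9 did not pass the filter there, at 2.01 to 17.0 in control.

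**Figure D3:**
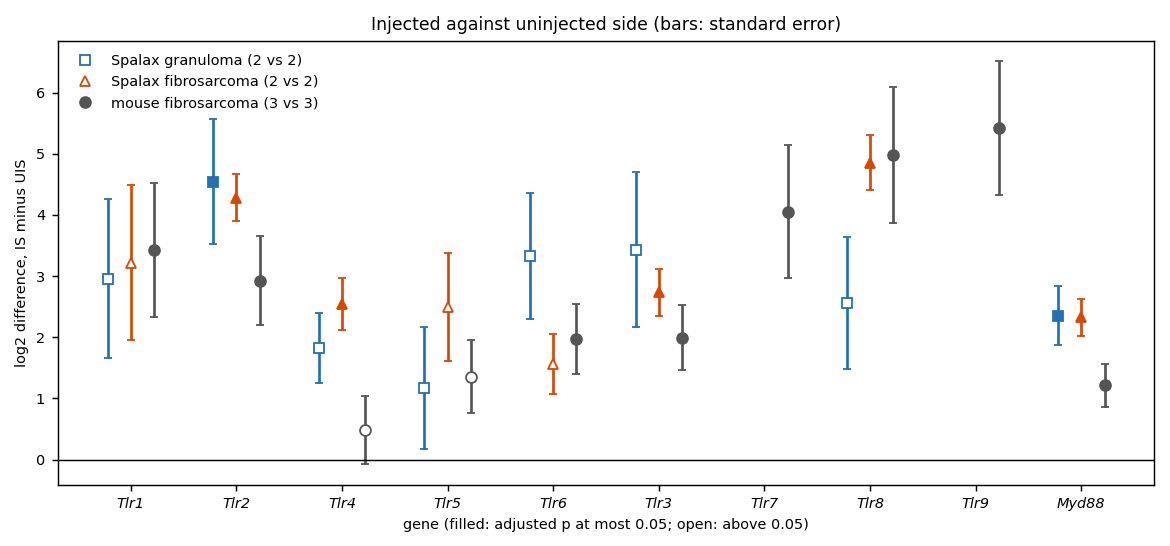
Log2 difference of IS minus UIS on the vertical axis for each member on the horizontal axis, with standard errors as bars, for Spalax granuloma and fibrosarcoma (2 animals each) and mouse fibrosarcoma (3 animals). Myd88 lies at 2.36 and 2.33 in Spalax and 1.21 in mouse, and Tlr4 at 1.82, 2.54 and 0.48. Filled symbols passed the test and open symbols did not.

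The species were compared by the difference itself. An interaction term asked whether the IS minus UIS difference of Spalax fibrosarcoma differs from that of mouse fibrosarcoma, over 12816 genes shared by symbol. It called 583 genes (4.55%), or 97 with animal as a replicate block, and none of the 9 members in either fit (limma), and 22.7% of the genes had an unadjusted p under 0.05. Among the members Tlr4 alone had an unadjusted p under 0.05, and edgeR and DESeq2 called 0 members. The term (Spalax minus mouse, log2 scale) was 2.06 ± 0.83 for Tlr4 (SE, adjusted p = 0.182) and 1.11 ± 0.51 for Myd88 (adjusted p = 0.234). For Tlr2 the difference was 1.36 ± 1.02 and for Tlr3 0.74 ± 0.77. That these terms missed the threshold does not show that the species act alike. Dose, time after the injection, age and sex differ along with species, and their parts cannot be told apart. Tlr7 entered the test only through mouse, since it was almost unread in Spalax, and its value of -2.16 ± 1.56 turned sign with a pseudocount of 0.1 (0.68).

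The level of Tlr7 was the clearest contrast between the tables, although tables normalised apart are described here and not tested. In CPM over the genes shared by symbol, with edgeR's TMM scaling, Tlr7 was 4.98 ± 2.25 (SD, n = 3) in mouse control and 0.0143 ± 0.0286 (SD, n = 4) in Spalax control. In fibrosarcoma IS it was 33.9 ± 18.7 (SD, n = 3) in mouse and 0.147 and 0.183 in Spalax. Tlr8, its neighbour on the mouse X chromosome, was 21.1 ± 16.4 (SD, n = 3) in mouse IS and 14.4 and 16.7 in Spalax fibrosarcoma IS. How completely the Spalax gene model covers Tlr7 was not tested. Tlr12 and Tlr13, which have no row of their name in the Spalax table, were also higher in mouse IS. Tlr13, a receptor of bacterial ribosomal RNA, rose by 3.87 ± 1.11 on the log2 scale in mouse IS (SE, adjusted p = 0.0299), to between 423 and 1438. Tlr12, a receptor of a profilin of protozoa, rose by 4.23 ± 1.25 (SE, adjusted p = 0.0327), to between 27.3 and 219. In UIS, Tlr12 lay between 0 and 6.09 normalised counts per kb of exon and Tlr13 between 2.01 and 36.5. Both passed the filter only with the help of IS libraries, which favours a rise.

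Levels were set against each other per kilobase of exon in mouse. Among the members, Myd88 was highest in control muscle (124 ± 28.1 normalised counts per kb, SD, n = 3), before Tlr4 (52.1 ± 23.0) and Tlr3 (32.6 ± 7.89). Tlr2 (24.3 ± 10.4) and Tlr7 (22.2 ± 10.2) followed and differed from each other by less than their spread. Tlr5, Tlr8, Tlr6, Tlr1 and Tlr9 lay below 10 per kb, and neighbours among them overlapped. In IS, Myd88 was again the highest member (263 ± 85.4), while Tlr1 (170 ± 146), Tlr2 (169 ± 124) and Tlr7 (153 ± 84.2) came next among the members with overlapping libraries. Tlr4 (91.7 ± 47.8) was at rank 8 of the 10 members, within the spread of Tlr8 (108 ± 83.9) and Tlr9 (93.1 ± 90.9). Its value was divided by 5556 merged exon bases, while its longest coding transcript has 4077, so its rank may change with that choice. Among the 10 members, Tlr5 was the lowest in IS (9.83 ± 4.70) and Tlr9 the lowest in control (2.61 ± 2.17).

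Other genes of the pathway were read from lists by role. As for the members, genes low in UIS could pass the filter only with the help of IS libraries, which favours a rise among them. The co-receptors and trafficking factors serve ligand transfer or receptor folding. In the pooled Spalax tumors, 6 of 8 tested were higher and 1 lower in IS, where 26.1% of all genes were higher and 52.6% passed in either direction. Cd14, which hands lipopolysaccharide to Tlr4, rose by 3.37 ± 0.54 on the log2 scale (SE, adjusted p = 0.000745), and Ly86 rose by 3.38 ± 0.73 (adjusted p = 0.00390). Cd180, a relative of Tlr4, rose by 3.18 ± 1.09 (adjusted p = 0.0339). Cd36, a fatty acid transporter of muscle and fat that also serves Tlr2 and Tlr6, fell by 3.47 on the log2 scale (SE 0.70, adjusted p = 0.00265). In mouse 3 of 9 were higher and 1 lower, where 22.8% of all genes were higher and 45.1% passed in either direction, with Cd180 up by 4.45 ± 1.06 (adjusted p = 0.0162), Unc93b1, which escorts endosomal receptors, up by 2.91 ± 0.77 (adjusted p = 0.0226) and Cd36 again lower (fell by 6.27, adjusted p = 0.000866). Cd14, singled out here after its values were seen, did not pass in mouse (1.61 ± 0.89, adjusted p = 0.182).

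Among the other adaptors, 3 of 4 tested were higher in Spalax IS (26.1% of all genes) and 1 of 4 in mouse IS (22.8% of all genes), the latter a share near that of all genes. Pik3ap1 (BCAP), which links the receptors to PI3-kinase, rose in both, by 4.34 ± 0.69 in Spalax (adjusted p = 0.000709) and 5.09 ± 1.02 in mouse (adjusted p = 0.00949). Tirap, which bridges Tlr2 and Tlr4 to Myd88, rose in Spalax tumors from 98.0 ± 12.3 to 255 ± 28.4 (SD, n = 4 per side, adjusted p = 0.00157). In mouse it was 588 ± 107 in UIS and 390 ± 39.6 in IS (SD, n = 3 per side), which did not pass (adjusted p = 0.103). The interaction term between Spalax fibrosarcoma and mouse passed for Tirap (1.92 ± 0.39, adjusted p = 0.0319). It also passed for Sarm1, known as a negative regulator and as a driver of axon loss, at -3.58 ± 0.81 (adjusted p = 0.0435). Over all genes the term called 583 of 12816 (4.55%), or 97 with animal as a replicate block. Whether Tirap and Sarm1 pass with that block is not reported here.

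Of the kinases and ubiquitin ligases, 3 of 15 were higher and 3 lower in Spalax, and 4 of 15 were higher and none lower in mouse. The shares that were higher lay near those of all genes, 26.1% and 22.8%. In either direction 52.6% of all genes passed in Spalax and 45.1% in mouse. Of those called genes, 50.3% and 49.5% were lower. Ikbke and Ripk1, which act upstream of interferon and NF-κB responses, rose in both species, Ikbke by 2.69 ± 0.43 (adjusted p = 0.000731) in Spalax and 3.28 ± 0.63 (adjusted p = 0.00819) in mouse. Ripk1 rose by 1.53 ± 0.20 (adjusted p = 0.000225) and 1.85 ± 0.36 (adjusted p = 0.00874). Traf3 rose by 1.33 ± 0.40 (adjusted p = 0.0190) in Spalax and 1.26 ± 0.25 (adjusted p = 0.00961) in mouse. Tab2, a partner of the kinase Map3k7, fell in Spalax by 1.13 on the log2 scale (adjusted p = 0.00184). In mouse Irak4, which binds Myd88 directly, rose by 1.80 ± 0.52 (adjusted p = 0.0303).

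**Figure D4:**
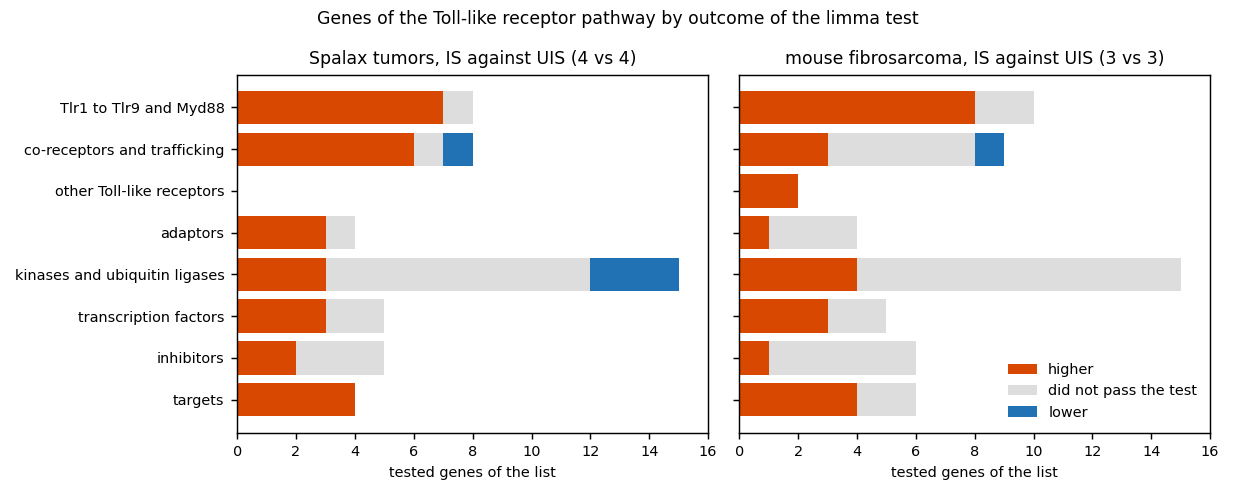
Number of tested genes of each pathway list (horizontal axis) that were higher, lower or did not pass the limma test in IS against UIS, by list (vertical axis), in the pooled Spalax tumors and in mouse fibrosarcoma. Of the receptors and Myd88, 7 of 8 and 8 of 10 were higher, and of the kinases and ubiquitin ligases 3 of 15 and 4 of 15, beside 26.1% and 22.8% of all genes.

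Of 5 transcription factors, 3 were higher in each species, beside 26.1% of all genes in Spalax and 22.8% in mouse. These were Irf5, Irf7 and Nfkb1 in both. Irf5 rose by 2.85 ± 0.76 in Spalax (adjusted p = 0.0115) and 2.83 ± 0.87 in mouse (adjusted p = 0.0376), and Irf7 by 1.46 ± 0.54 (adjusted p = 0.0462) and 3.12 ± 0.71 (adjusted p = 0.0139). Of the inhibitors, 2 of 5 were higher in Spalax and 1 of 6 in mouse, beside the same shares of all genes. None was lower, where 52.6% and 45.1% of all genes passed in either direction. Tnfaip3 (A20) rose by 1.68 ± 0.47 (adjusted p = 0.0149) in Spalax and 2.54 ± 0.38 (adjusted p = 0.00409) in mouse. Irak3, which blocks signalling from Myd88 in macrophages, rose in Spalax from 95.9 ± 30.0 to 523 ± 89.5 (SD, n = 4, adjusted p = 0.000213), and was 164 ± 36.3 in UIS and 151 ± 98.6 in IS of mouse (SD, n = 3, adjusted p = 0.660). The interaction term for Irak3 was 2.66 ± 0.81 and did not pass (adjusted p = 0.0971).

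The last list held cytokines and chemokines that Toll-like receptors induce. In Spalax 4 of 4 tested, of 7 listed, were higher in IS, beside 26.1% of all genes, with Cxcl10 up by 5.14 ± 1.51 (adjusted p = 0.0174), Il1b by 4.87 ± 1.14 (adjusted p = 0.00591), and Ccl5 by 4.34 ± 0.61 (adjusted p = 0.000382). The listed genes that were not tested did not pass the filter. Genes low in UIS could pass it only through IS libraries, so the filter favours a rise in this list. In mouse 4 of 6 tested were higher, beside 22.8% of all genes, with Cxcl10 up by 4.77 ± 0.93 (adjusted p = 0.00884) and Ccl5 by 4.48 ± 1.08 (adjusted p = 0.0170). Il1b, singled out here after its values were seen, did not pass in mouse (1.85 ± 1.27, adjusted p = 0.272).

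The genes most like each member were found by Pearson correlation of log2(value + 1) across libraries, as a description, since the libraries share group, tissue makeup and depth. Over the 16 Spalax libraries Myd88 followed Batf (r = 0.985), Tspo (0.985) and Klhl5 (0.984), and over the 9 mouse libraries Akna (0.980), Ankrd13d (0.979) and Tnfrsf26 (0.977). Among the members themselves, the nearest to Myd88 was Tlr2 in Spalax (0.977) and Tlr3 in mouse (0.954). Tlr7 and Tlr8 were nearest to each other in mouse (0.976). Tlr4 was close to Myd88 in Spalax (0.954) and less so in mouse (0.609), where Tlr4 had no member closer than that. The gene nearest to each other member in Spalax was Rgs18 for Tlr1 (0.956), Anxa1 for Tlr2 (0.981), Sytl3 for Tlr3 (0.965), Hps3 for Tlr4 (0.971), Ap1g2 for Tlr5 (0.929), Cyth4 for Tlr6 (0.968), Mmp9 for Tlr7 (0.917) and Clec4d for Tlr8 (0.960). In mouse, with Tlr1 left out, it was Armc7 for Tlr2 (0.992), Myo1g for Tlr3 (0.992), Stxbp5 for Tlr4 (0.970), Heatr5b for Tlr5 (0.981), Cyp4f18 for Tlr6 (0.988), Cd80 for Tlr7 (0.994), Arf3 for Tlr8 (0.993) and Ptprj for Tlr9 (0.996).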

How the data were processed

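Total muscle and tumor RNA was sequenced with a strand-specific kit (101 cycles) in 25 libraries, and library names give the animal of each. According to the methods and the submitters' processing notes, reads were trimmed with Trimmomatic 0.33, aligned with TopHat (1.4.1 in the notes, TopHat2 in the methods; mouse build GRCm38) and counted with HTSeq. The deposited values are signal values made by the authors, who scaled each library's gene counts with 1 DESeq size factor. The strand setting of counting is not given in the sources used here.

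Every value was a whole multiple of 1 step per library (100% within a tolerance of 0.01), which gave back the reads: 17025447 to 23386729 per Spalax library and 22143060 to 31179183 per mouse library. A value of 1 read lay between 0.517 and 1.44. Spalax values were read from the line end, since 2387 gene names hold a comma for a lower-case t. No replicate pair of 25 agreed within sampling noise (lowest chi-square per degree of freedom 48.1).

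Tests used limma 3.58.1 (R 4.3.3, trend) on log2(value + 1) of genes that reached a value of 10 in at least the number of libraries of the smaller group, with Benjamini-Hochberg adjustment over all genes and a threshold of 0.05, so log2 differences of low genes are understated. Replicates are separate animals, and each fit held only the groups compared. IS and UIS of 1 animal share its number through the specimen labels. The correlation of their deviations was -0.01 on average in Spalax tumors (-0.06 to 0.05) and 0.12 in mouse (0.05 to 0.18), and the main fits hold no animal block. Alternatives were edgeR 4.0.16 and DESeq2 1.42.0 on the recovered reads, total-read scaling, a pseudocount of 0.1, no filter, 1 model per species, the animal block and leaving out libraries. Simulated data with 100 genes changed by 2 on the log2 scale gave 100% (Spalax pooled, 13789 genes), 99% (Spalax fibrosarcoma, 13678 genes) and 99% (mouse, 14644 genes) recovered, with 7, 9 and 12 false calls in the same runs, which also held 100 genes changed by 3. Only well-read genes were changed in these runs, and 1 fixed spread was used for all genes, not that of these animals. Recovery of low genes, or at the spread of these animals, was not tested.

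Named genes were the 10 members, at most 4 genes per pathway list and comparison (the largest called changes, then list order), and the 3 genes most like Myd88 and the 1 most like each other member by Pearson correlation, among genes with a mean of at least 10. Members and lists were chosen with earlier results of these data known. Tlr9 in Spalax and promoter sequences were not analysed here, and the gene most like Tlr1 in mouse is not reported here.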

Additional observations from a re-analysis of the deposited data

Results flagged for a closer look

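Single libraries stood far from the other 3 in 6 of 36 gene-by-group sets of 4 Spalax libraries (gap to the nearest library over the whole range above Dixon's critical value for 4 samples). For normally distributed values chance flags about 1 set in 20. The rule was used on values without a log, where that rate need not hold, so no excess is read from the 6. Tumor types were pooled in these sets. Tlr1 in UIS was highest in granuloma 600, at 26.53, and Tlr8 in UIS was highest in the same library, at 65.12. Tlr5 in IS was highest in fibrosarcoma 2230, at 116.9. Tlr7 stood out in control 6038 at 0.9948, which is 1 read beside 0 reads in the other controls. Tlr7 also stood out in tolerant 2251 at 34.53 and in IS of granuloma 976 at 13.29.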

How the results depend on the processing

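The members called in the pooled Spalax tumors stayed within 1.5 times the reported number in every alternative run. In granuloma, 2 members became 6 with DESeq2, 4 with total-read scaling and 5 with 1 model over all libraries, and ranged from 0 to 0 without 1 library. In fibrosarcoma, 5 became 8 with DESeq2 and ranged from 0 (without UIS 2230 or UIS 2240) to 8 (without IS 2240). In tolerant against tumor IS the range was 3 (without tolerant 2218) to 6 (without tolerant 2251). In mouse, 8 ranged from 2 (without IS 1019 or IS 1023) to 7 and was 4 without UIS 1023. Leaving out both libraries of an animal, an alternative chosen after seeing the data, gave 3 without 1019 and 0 without 1023, where Tlr4 turned to -0.293 without 1019. Where 1 library remains in an arm, it is assumed to vary like the others.

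With the replicate block for animal, 7, 2, 5 and 8 members passed in pooled Spalax tumors, granuloma, fibrosarcoma and mouse, and the species term called 97 genes instead of 583 and 0 members, so the block changed no call count of members.

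Direction turned in results that had not passed. For control against UIS, Tlr6 was 0.028 with edgeR and 0.034 with DESeq2. For fibrosarcoma against granuloma IS, Myd88 was 0.057 with total-read scaling. For the species term, edgeR and DESeq2 gave Tlr1 0.865 and 1.103, Tlr7 1.334 and 0.118, and Tlr8 0.134 and 0.339, and a pseudocount of 0.1 gave Tlr7 0.682. The cause was not tested.

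Leaving out 1 library moved control against tolerant from -0.393 to 0.447 (Myd88), -0.689 to 0.98 (Tlr1), -0.599 to 0.949 (Tlr2), -0.221 to 0.691 (Tlr3) and -0.129 to 1.193 (Tlr6). Control against UIS moved from -0.959 to 0.226 (Tlr3) and -0.686 to 0.428 (Tlr6), and tolerant against tumor IS from -0.087 to 0.974 (Tlr5). Fibrosarcoma against granuloma IS moved from -0.325 to 0.241 (Myd88), -2.179 to 1.338 (Tlr1), -1.451 to 0.704 (Tlr2) and -0.371 to 0.733 (Tlr6). Mouse control against UIS moved from -0.341 to 0.03 (Myd88), -0.725 to 0.169 (Tlr2), -0.592 to 0.088 (Tlr3) and -0.134 to 0.692 (Tlr4). The species term moved from -1.962 to 1.556 (Tlr1), -0.79 to 0.061 (Tlr6) and -1.041 to 0.852 (Tlr8).

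Total-read scaling raised the share of called genes that were higher from 48% to 75% in granuloma and from 47.8% to 75.7% in fibrosarcoma, and lowered it from 49.6% to 34.3% for the species term. Of the single-gene results, 995 kept direction and side of the threshold, 26 came to pass, 63 no longer passed and 44 turned direction.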
